A study of Mus musculus with 8 samples.

Results

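Translation initiation and elongation factor genes were followed in mouse hematopoietic stem cells at 2 ages. They were chosen by name from the deposited table of the whole series: symbols that begin with Eif or Eef and a digit gave 68 rows, and leaving out Eif2s3y, Eif2s3x and Eif2ak2 gave 65 members of 38172 rows. The names bring in 4 Argonaute genes, listed under their older Eif2c symbols, and 3 pseudogene models, which leaves 58 other members. These still include kinases and inhibitors that act on the factors and are not factors themselves. All 65 are called members or translation factor genes below, after the rule. The cells came from the bone marrow of wild-type C57BL/6 mice aged 4 months (young) or 24 months (old), with no treatment named, and were sorted freshly as side population cells that were KSL (Kit+, Sca-1+, lineage-negative) and CD150+. Each age had 2 biological replicates, numbered 13 and 14 in the labels, and each replicate had 2 technical libraries, so that 8 libraries of polyA-selected RNA gave n = 2 per age. Whether a replicate pools animals is not in the labels, and the p-values therefore measure only how far these samples spread.

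Initiation factors bring the initiator tRNA and the small ribosomal subunit to a capped mRNA, scan it for a start codon and join the large subunit there. Elongation factors then deliver each aminoacyl-tRNA and move the ribosome along. Blood stem cells are known for making protein at a low rate, and the main brakes on the process are phosphorylation of eIF2, binding of eIF4E by its inhibitors and phosphorylation of eEF2, none of which is read by mRNA levels.

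Levels are given on 2 scales, always in the order young 13, young 14, old 13, old 14 unless a sentence names the replicates. The scaled value is the number of reads on a gene after the authors multiplied each library by 1 factor and rounded, and the technical libraries of a replicate were averaged. FPKM, the same value per length, is used to compare levels between genes. Shares of the total and ratios to overlapping models use the scaled value, and a rank names its scale. Summed scaled values were 40.7 M to 44.2 M per library, and the members took between 2.73% of the total in young 13 and 3.50% in old 14. In bulk RNA, fewer cells of a type and less RNA per cell cannot be told apart. All 8 stem cell markers of the check list were measured, with a summed scaled value of 124090 to 157212 per replicate. No marker of another cell type was at 0 in all 4 replicates. The 13 neutrophil and granulocyte progenitor markers summed to 15077, 57713.5, 14005 and 30360, and their median in old 14 over old 13 was 2.97 on the log2 scale. Old 14 is the replicate in which many translation factor genes stand apart, and the part of these markers in that was not tested.

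None of the 62 translation factor genes that passed the filter (2 or more replicates with a scaled value of 10 or above) changed between the ages at an adjusted p under 0.05 (limma, Benjamini-Hochberg over 18318 genes). Of all tested genes 2.55% passed, 2.01% with the old higher and 0.54% with the old lower. At an unadjusted p under 0.05 limma gave 1 member, Eif1a, and limma-voom also called 0 members with 1 at that level. Eif1a alone is 1.61% of the members against 14.0% of all tested genes. The median log2 fold change of the members, old over young, was 0.03, against 0.04 over all tested genes. Above 0 stood 36 members and below it 26, against 10349 and 7969 of the 18318 tested genes. The fitted values ran from -0.32 for Eif1 to 0.52 for Eif1a, and the median size of the log2 difference was 0.11 for members and 0.20 for all tested genes. The filter left out Eef1a2 (scaled values of 0.5, 0, 0 and 0.5), Eif4e1b (0 in all replicates) and the pseudogene model Eif3s6-ps2 (1 to 3.5). Eef1a2 is the eEF1A form of muscle and nerve, and Eif4e1b an eIF4E form of the oocyte.

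The width of the intervals shows how large a difference these 4 replicates allow. For 60 of the 62 members the 95% interval of the age difference lay inside 2-fold either way, compared with 66.5% of all tested genes. The exceptions were Eef1a1 and Eif3s6-ps1. For 40 members (64.5%) it lay inside 1.5-fold either way, compared with 34.4% of all tested genes. Both old replicates lay above both young ones for 4 members, where the background is 24.7% of all tested genes, and below them for 10, where it is 17.4%. Together these are 22.6% of the members against 42.1% of all tested genes, and for the other 48 the ages overlapped.

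**Figure D1:**
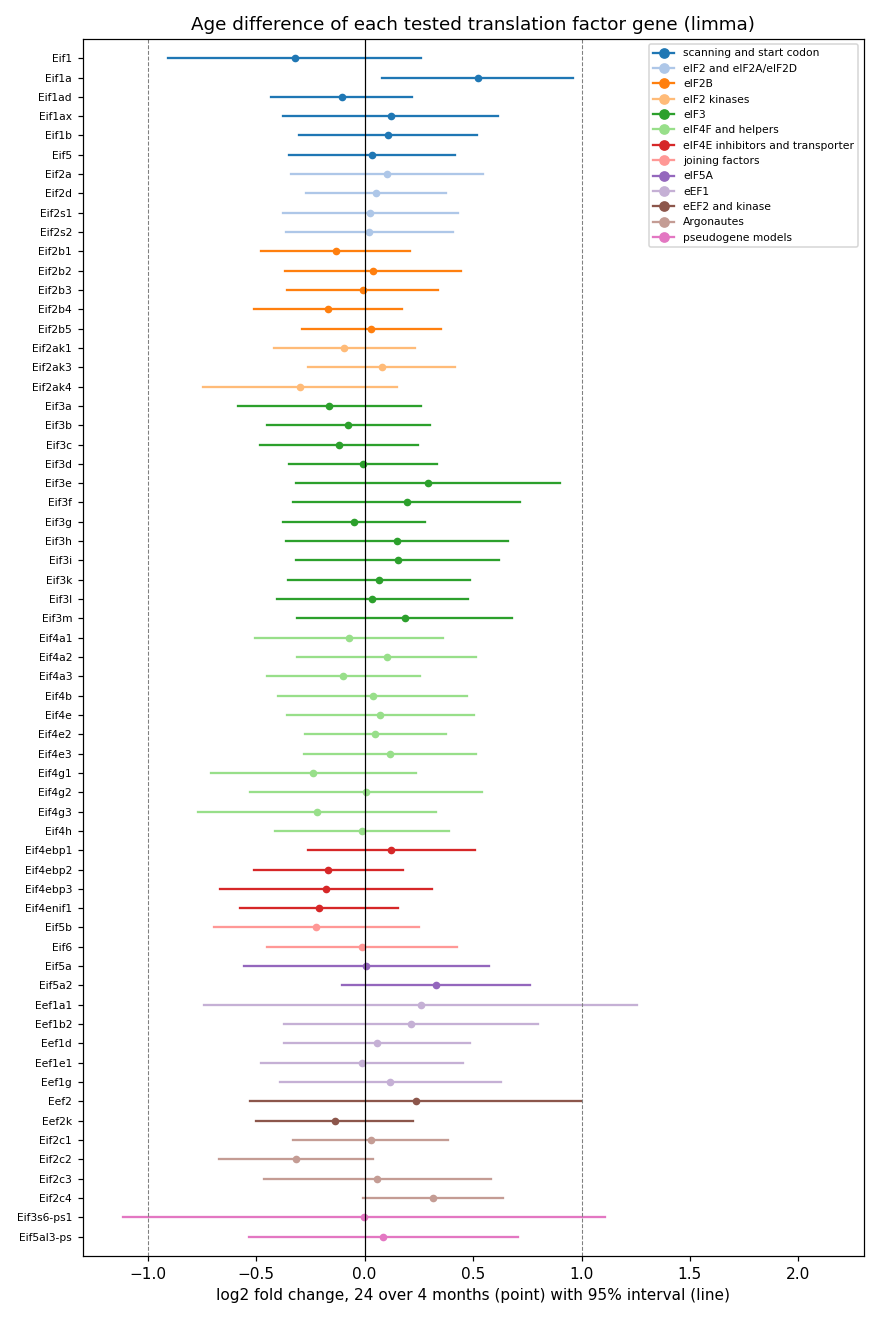
Log2 fold change (24 over 4 months) of each of the 62 tested genes as a point, with its 95% interval from limma as a line, grouped by role. Dashed lines mark 2-fold either way. The interval of Eif1a, from 0.08 to 0.96, is the only one that does not include 0, and the intervals of Eef1a1 and Eif3s6-ps1 reach past 2-fold.

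The levels spanned a wide range, and elongation factors stood at the top. Eef1a1 encodes eEF1A, which carries aminoacyl-tRNA to the ribosome. Its FPKM was 4153, 5152, 4266 and 7176, highest in old 14, and by scaled value it ranked 1 among all rows in every replicate. By FPKM it ranked 1 in young 13, young 14 and old 14 and 2 in old 13. Eef2 encodes the factor that moves the ribosome forward by a codon, and its FPKM was 1291, 1350, 1296 and 1863. Together these genes made up 50.8% of the members' scaled total in young 13 and 59.8% in old 14. Without them the members' share of all scaled values was 1.34%, 1.40%, 1.32% and 1.41%, so that most of the higher share in old 14 lay in this pair. The next levels by mean FPKM were those of Eef1b2, Eif5a, Eif3e, Eif3f and Eef1g, and the spans of their replicates overlapped between neighbours in that order. The median member stood at an FPKM of 43.2 to 55.8 per replicate.

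**Figure D2:**
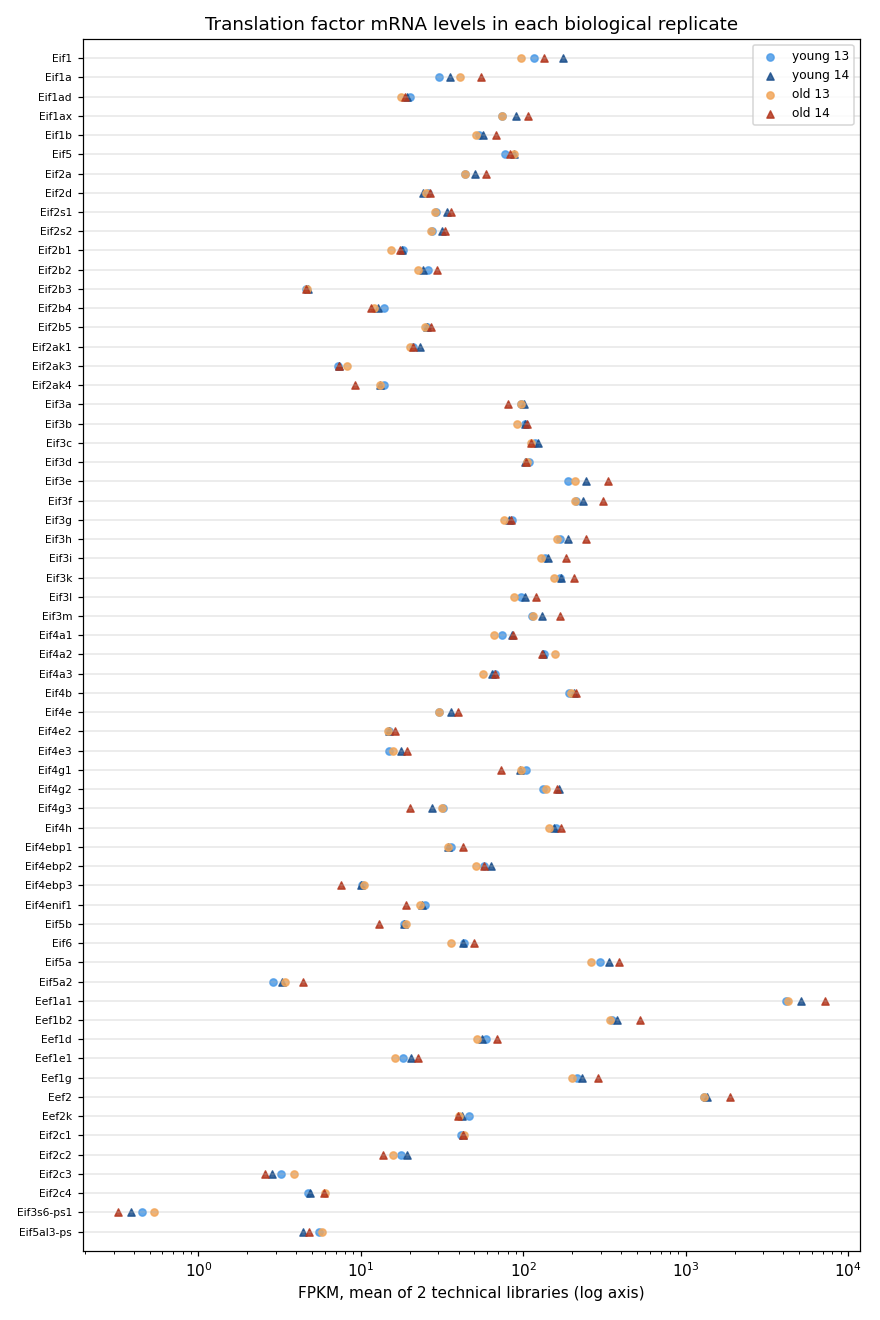
FPKM of each tested gene in the 4 biological replicates (log axis), grouped by role, with each point the mean of 2 technical libraries. Eef1a1 and Eef2 lie above all other members in every replicate, and the triangles of old 14 lie to the right of the other points in most rows of the eEF1 and eIF3 genes and to the left in Eif2ak4, Eif4g1, Eif4g3 and Eif5b.

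Start codon selection is the work of eIF1, eIF1A and eIF5. Eif1a, on chromosome 18 (46757359 to 46769879 in mm9), had scaled values of 4373, 5105, 5852.5 and 7848.5. Both old replicates were above both young ones, with a log2 fold change of 0.52 (SE 0.19) and an adjusted p of 0.261 (limma, Benjamini-Hochberg). With the replicate number as a block the adjusted p was 0.00801 (limma), and without old 14 the log2 fold change was 0.31. In the authors' deposited table its log2 fold change was 0.50 with an FDR of 0.000309. A model without a gene symbol, HAG_018819, overlaps 2628 bases of Eif1a on the opposite strand and held 3944, 4690, 5320 and 7224. Eif1a had 1.09 to 1.11 times the value of that model in every replicate, and since the sources used here do not state that strand was counted, reads of the pair cannot be told apart. Its X-linked relative Eif1ax, which encodes the same kind of factor, had 3387.5, 4131.5, 3379 and 4887, and its ages overlapped. Eif1, which keeps the scanning ribosome open until a start codon is met, had 7004.5, 10607, 5862.5 and 8098.5. Its young replicates spanned more than the ages differed, with a log2 fold change of -0.32 (SE 0.25) and an adjusted p of 0.660 in limma, although the authors' deposited table marks it as lower (log2 fold change -0.37, FDR 0.0268). Eif5, the factor that makes eIF2 hydrolyse its GTP, had 15363, 17423, 17254 and 16266.5.

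The eIF2 complex delivers the initiator tRNA, and eIF2B recharges it with GTP. The 4 genes of eIF2, eIF2A and eIF2D had log2 fold changes between 0.02 and 0.10. Eif2a, an alternative carrier of initiator tRNA, had scaled values of 5002.5, 5792, 4977.5 and 6719.5. Eif2d, a factor of non-standard initiation and ribosome recycling, had 2938.5, 2759.5, 2875 and 3035. Eif2s1 and Eif2s2, the alpha and beta subunits of eIF2, had FPKM values of 28.6 to 35.8 and 27.1 to 33.1. Within each of these 4 genes the ages overlapped.

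The 5 eIF2B subunits had log2 fold changes between -0.17 and 0.04 and a median of -0.01. Eif2b4, the delta subunit, had scaled values of 1454, 1332.5, 1265 and 1212. Eif2b1, the alpha subunit, had 1747, 1730.5, 1487.5 and 1691.5. In both genes the old replicates lay below the young ones, by less than the test could separate (adjusted p 0.701 and 0.775, limma). Eif2b5, the catalytic epsilon subunit, had 3238, 3226, 3165.5 and 3444.5, and its ages overlapped.

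The kinases that phosphorylate eIF2 differ in the stress they sense. Eif2ak4 encodes GCN2, the sensor of amino acid shortage, and had scaled values of 3605, 3433.5, 3400 and 2406.5. Old 13 sat just below the young replicates and old 14 far below, with a log2 fold change of -0.30 (SE 0.19) and an adjusted p of 0.584 in limma. Without old 14 the log2 difference was -0.05. The authors' deposited table marks Eif2ak4 as lower (log2 fold change -0.30, FDR 0.0443). Eif2ak1, the heme-regulated kinase, had 2916, 3187, 2793.5 and 2921.5, and Eif2ak3, the kinase of endoplasmic reticulum stress known as PERK, had 1630, 1644.5, 1832 and 1633. For these kinases the ages overlapped.

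The eIF3 complex is the scaffold that holds the small subunit and the mRNA together. Its 12 measured subunits stood close together in young 13, from 84.9 to 211 on the FPKM scale, a 2.49-fold span. The span was 3.01-fold in young 14, 2.72-fold in old 13 and 4.10-fold in old 14. Eif3e had scaled values of 14417.5, 18640, 15912.5 and 25346. Eif3a, the largest subunit, had 25107, 25996.5, 24981.5 and 20848. The subunits thus went opposite ways in old 14, where Eif3e was the highest of the 4 replicates and Eif3a the lowest. Over the 12 subunits 10 were higher in old 14 than in old 13, against 50.6% of all tested genes. The subunits' median of old 14 over old 13 was 0.43 on the log2 scale, and their median age difference was 0.05.

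The eIF4F complex recognises the cap and unwinds the leader of the mRNA. Eif4g1, its scaffold, had scaled values of 27790.5, 25559, 26009 and 19669. Eif4g3, a second scaffold, had 10018, 8582, 9998 and 6348. In both, old 14 was lower than the other 3 replicates, which lay close together for Eif4g1, and the age differences were -0.24 (SE 0.20) and -0.22 (SE 0.23) with adjusted p of 0.696 and 0.767 (limma). Without old 14 they were -0.04 and 0.11. Eif4g2, a scaffold that does not bind the cap factor eIF4E, had 51047, 64622.5, 53549 and 62132.5, so that both replicates numbered 14 were higher than both numbered 13. On the FPKM scale Eif4g2 stood at 1.28, 1.76, 1.43 and 2.20 times Eif4g1. Eif4b, the helper of the helicase eIF4A, had the highest mean FPKM of the group, with scaled values of 36703, 39583.5, 37936 and 40279 and ages that overlapped. The helicase gene Eif4a1 stood below Eif4a2, at 0.549, 0.645, 0.421 and 0.662 of its FPKM.

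The genes that hold eIF4E back had a median age difference of -0.17, with 3 of 4 below 0. Eif4enif1, the eIF4E transporter, had scaled values of 5206.5, 5040, 4886 and 4011.5. Eif4ebp2, an eIF4E-binding inhibitor under mTOR control, had 5142, 5654.5, 4537.5 and 5078. Both genes were lower in both old replicates, by log2 differences of -0.21 and -0.17 with adjusted p of 0.645 and 0.704 (limma). Without old 14 the difference of Eif4enif1 was -0.07, and without old 13 that of Eif4ebp2 was -0.09. Summed over Eif4ebp1, Eif4ebp2 and Eif4ebp3, the inhibitors stood at 3.42, 3.01, 3.16 and 2.70 times the FPKM of Eif4e, and the ages overlapped.

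At subunit joining and beyond, Eif5b, which encodes the GTPase that joins the subunits, had scaled values of 7125, 7121, 7369 and 5048. Old 14 alone was low, and the log2 difference was -0.22 in all and 0.05 without old 14. Rev1 overlaps 2793 bases of Eif5b on the opposite strand and had 2815, 2580, 2683.5 and 1953.5. Eif6, which keeps the large subunit from joining early, had 3208, 3161.5, 2671.5 and 3728, so that the old replicates lay on either side of the young ones. Eif5a encodes the hypusine-carrying factor that helps ribosomes through difficult peptide bonds and had 29800, 33753, 26033.5 and 39028.5. Its old replicates also enclosed the young ones. Eif5a2, the second form, had 720.5, 817.5, 853 and 1090.5. Both old replicates were above both young ones, with a log2 fold change of 0.33 (SE 0.18) and an adjusted p of 0.518 in limma. Without old 14 the difference was 0.15.

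Among the elongation factors the higher values lay in old 14. Eef1a1, on chromosome 9 (78326262 to 78329531), had scaled values of 369785, 458802, 379878 and 639014. Eef2, on chromosome 10 (80639377 to 80645254), had 199153, 208308, 199900 and 287447. Eef1b2, a subunit of the eEF1B complex that recharges eEF1A, had 33739.5, 36594, 32808 and 50513.5. In each of the 3 genes old 13 lay within or below the young values and old 14 above all others. The age differences were 0.26 (SE 0.42), 0.23 (SE 0.32) and 0.21 (SE 0.25), with adjusted p of 0.859, 0.828 and 0.789 (limma), and without old 14 they were -0.12, -0.03 and -0.10. Eef2k encodes the kinase that switches eEF2 off and had 14674.5, 13180, 12742.5 and 12532.5. Its old replicates lay below the young ones (log2 difference -0.14, adjusted p 0.778, limma). The ratio of Eef2 to Eef2k on the FPKM scale was 27.7, 32.3, 32.1 and 46.9.

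The Argonautes bind small RNAs and repress or cut their targets, and share only an old name with the initiation factors. Eif2c2, which encodes the slicing Argonaute AGO2, had scaled values of 7037, 7685.5, 6332.5 and 5508. Both old replicates were lower (log2 fold change -0.32, SE 0.15, adjusted p 0.427, limma), and the authors' deposited table marks the gene as lower (-0.34, FDR 0.0255). Eif2c4 had 1542.5, 1576.5, 1960 and 1923.5. Here the replicates of an age were close together and the old ones higher, with a log2 fold change of 0.32 (SE 0.14) and an adjusted p of 0.368 (limma). HAG_027714, a model on the opposite strand that shares 3742 bases with Eif2c4, had 954.5, 1012.5, 1210.5 and 1234, and Eif2c4 stood at 1.56 to 1.62 times its value. Eif2c1, the highest of the 4, had 14578.5, 15009, 15106 and 15034.5 and differed by 0.03 on the log2 scale. The pseudogene models stood low: Eif5al3-ps had 124, 98, 128 and 107 and Eif3s6-ps1 between 7.5 and 12.5, and reads from their near-identical parent genes could be counted there.

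The authors' deposited table marked 4 of the 64 members that have an FDR there, or 6.25%, against 11.8% of all its rows with an FDR. They are Eif1a (higher) and Eif1, Eif2ak4 and Eif2c2 (lower), and in the limma fit of the averaged replicates each kept the direction without passing. Which libraries the authors' comparison took as replicates is not stated there.

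**Figure D3:**
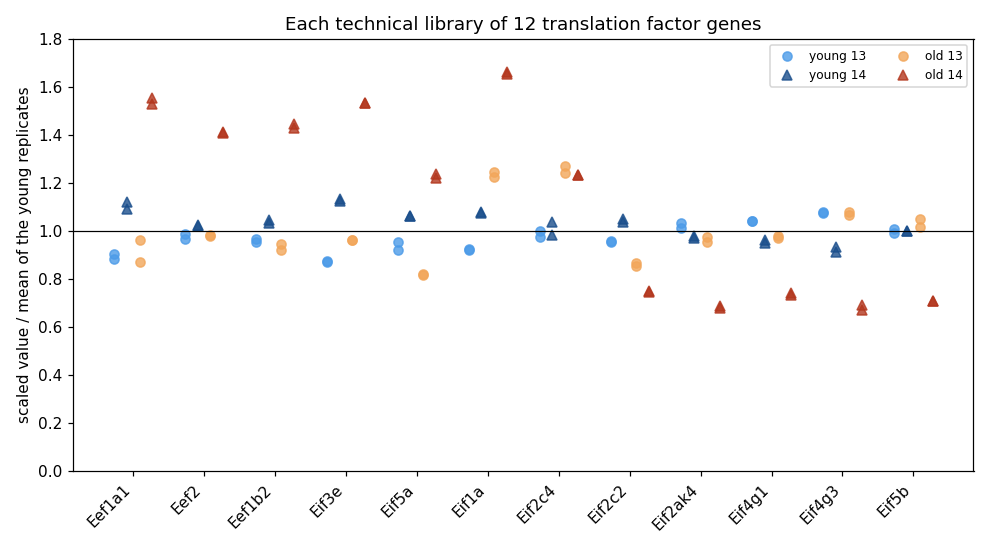
Scaled value of each technical library of 12 translation factor genes, divided by the mean of the young replicates of that gene. The 2 technical libraries of a replicate lie on or near each other, and old 14 (dark triangles) departs upwards in Eef1a1, Eef2, Eef1b2 and Eif3e and downwards in Eif2ak4, Eif4g1, Eif4g3 and Eif5b, while old 13 lies near the young replicates in these genes.

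The widest differences among the members were those between the old replicates. The median size of the log2 difference was 0.02 between technical libraries, 0.11 between the young replicates and 0.34 between the old ones; over all tested genes these were 0.06, 0.19 and 0.28. In 42 of the 62 members (67.7%) old 14 was higher than old 13, against 50.6% of all tested genes. The members' median was 0.20 on the log2 scale, against 0.01 over all tested genes. The young replicates differed by a smaller amount, with a members' median of 0.05 for young 14 over young 13, against -0.05 over all tested genes. Spearman's rho between the old and the young differences was 0.62 over the members and 0.53 over all tested genes. The ranks of genes by 14 over 13 were thus in part alike at both ages. The genes share the same replicates and are not independent, and the reason was not tested. Old 14 was at least 1.2 times old 13 in 28 members, against 25.2% of all tested genes, and lower by the same factor in 8, against 27.9%. By role, old 14 was higher in all 5 tested eEF1 genes (median 0.55), 10 of 12 eIF3 genes, all 4 of eIF2, eIF2A and eIF2D, 5 of 6 scanning and start codon genes, both eIF5A genes and 8 of 11 eIF4F genes and helpers. It was higher in 3 of 5 eIF2B genes, 2 of 4 eIF4E inhibitors and transporter, 1 of 2 joining factors, 1 of 2 for eEF2 and its kinase, 1 of 3 eIF2 kinases, 0 of 4 Argonautes and 0 of 2 pseudogene models. Differences between roles, and of a role from the 50.6% of all tested genes, were not tested. The 79 tested cytosolic ribosomal protein genes, which form the machine these factors serve, had a median of 0.66 in old 14 over old 13, and 78 were higher in old 14. Their median age difference was 0.23, with 0 called in limma and 1 at an unadjusted p under 0.05.

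Exon length moved with this difference. Among the 26 members under 2000 bases the median of old 14 over old 13 was 0.43 and 22 were higher in old 14. Among the 20 members of 2000 to under 4000 bases it was 0.22 and 17 were higher. Among the 16 members of 4000 bases or longer it was -0.18 and 3 were higher. Over all tested genes the medians of these classes were 0.08, 0.03 and -0.12. Old 14 was higher in 3993 of 6986, 3496 of 6631 and 1773 of 4701 of them. Spearman's rho of the difference with length was -0.52 over the 62 members and -0.16 over all tested genes, and for young 14 over young 13 it was -0.07 over the members; the genes share the same libraries and are not independent. The part of length, of RNA quality and of the neutrophil markers in the old 14 values was not tested. Leaving old 14 out, the members' median age difference was -0.10, against 0.02 over all tested genes, and 15 of 62 were above 0. Leaving old 13 out, the members' median was 0.10, against 0.07 over all tested genes, and 38 were above 0. The direction of the members as a group thus depended on which old replicate was used. TMM and median-ratio factors shift all genes alike: they put the members' median at -0.01 and -0.02, each with 26 members above 0, and that of all tested genes at 0.01 and -0.001, so that the members stood 0.02 below all tested genes, as they did without these factors.

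**Figure D4:**
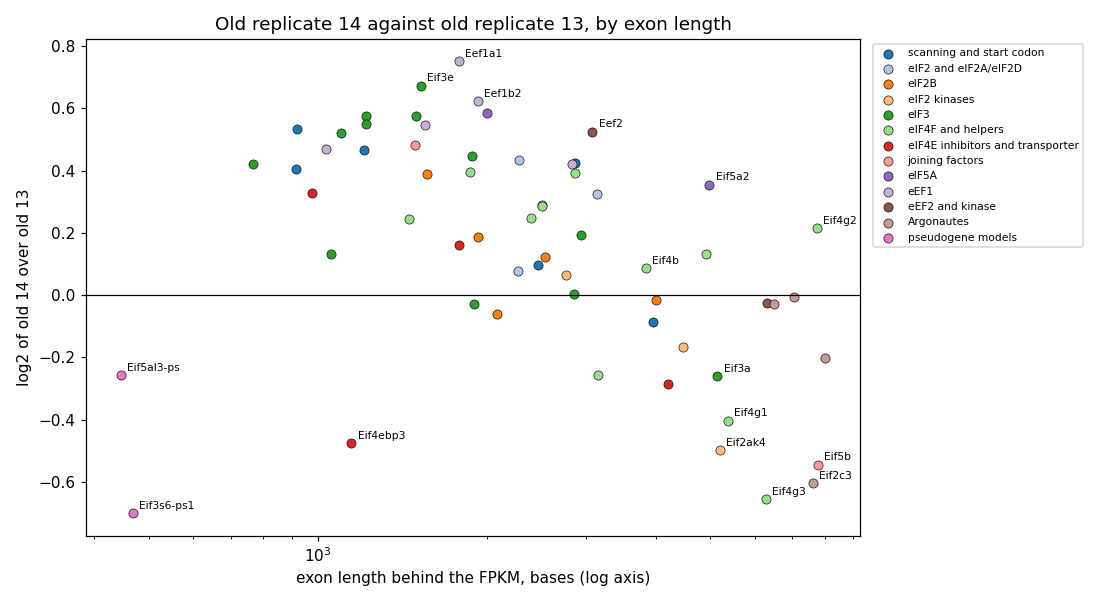
Log2 of old 14 over old 13 for the 62 tested genes against the exon length behind their FPKM (log axis), with each point a gene coloured by role. Most genes under 2000 bases lie above 0, with Eef1a1 highest at 0.75. Eif4g3 (-0.66), Eif2c3 (-0.60) and Eif5b (-0.55), all longer than 4000 bases, lie low, and so do the short pseudogene model Eif3s6-ps1, the lowest at -0.70, and Eif4ebp3 (-0.48).

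Promoters were read because many members moved together between the old replicates. The E-box CACGTG is the site bound by Myc and its relatives, which are known to act on genes of protein synthesis, and it reads the same on both strands. RefSeq promoters (GRCm38.p6, 250 bases before to 50 after the start) matched 48 of the 65 members by symbol or synonym. Eif2c1, Eif2c3 and Eif2c4 were matched by synonym, as Ago1, Ago3 and Ago4. Tested genes of the background were matched by symbol alone. The E-box was present in 12 of them (25.0%), in 11.5% of the 9929 tested genes with a promoter and in 8.09% of all 27025 genes of that table; a gene was counted if any of its listed promoters held the motif. The ETS-type motif CCGGAAGT, searched on both strands, was present in 9 (18.8%), 8.33% and 4.31%. Genes for printing were picked by hand: members that were high in old 14 (Eef2, Eif3f, Eif5a, Eif4e) and a member that was low there (Eif4g1). Eif3a (-0.26 in old 14 over old 13) and Eef2k (-0.02), also with the E-box, are not printed. The following 40-base windows show the E-box in capitals, 5′ to 3′ on the gene's strand.
Eef2: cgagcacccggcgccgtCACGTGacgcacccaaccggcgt
Eif3f: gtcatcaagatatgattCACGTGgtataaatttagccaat
Eif5a: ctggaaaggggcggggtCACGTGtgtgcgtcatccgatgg
Eif4e: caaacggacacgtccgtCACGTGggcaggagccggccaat
Eif4g1: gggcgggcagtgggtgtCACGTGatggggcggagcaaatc
The windows lie at chr10:81176571-81176610 (plus strand), chr7:108934330-108934369 (plus), chr11:69921438-69921477 (minus), chr3:138527187-138527226 (plus) and chr16:20672656-20672695 (plus), and the E-box begins 43, 68, 74, 64 and 54 bases before the listed start whose window was read; Eif5a and Eif4e have further listed starts. The 12 members with the E-box had a median of 0.39 in old 14 over old 13, ranging from -0.40 (Eif4g1) to 0.58 (Eif5a), with 9 above 0. The 35 tested members with a promoter and no E-box had a median of 0.12, with 23 above 0. The median age difference was 0.04 with the E-box and 0.03 without it. A gap between the old replicates was not particular to the E-box. The 9 members with the ETS-type motif had a median of 0.35 in old 14 over old 13, with 7 above 0. The 38 tested members with a promoter and without that motif had 0.15, with 25 above 0. A match describes letters in this window and does not show that a factor binds there.

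Other genes of the pathway gave the same count. Of 41 further translation factors and regulators (release, recycling, cap-binding partners, mTOR and hypusine genes) none passed in limma, 1 had an unadjusted p under 0.05, and the median log2 fold change was 0.01. Ppp1r15a, the stress-induced subunit that directs a phosphatase to eIF2, had scaled values of 2125.5, 9869.5, 1418.5 and 1413.5. Both old replicates were below both young ones, and young 14 set much of the size of the difference (adjusted p 0.264, limma). Ltv1, which acts in maturation of the small subunit, had 2063, 2326, 1856.5 and 1769 (adjusted p 0.486, limma). Of 10 mitochondrial translation factors none passed in limma, also at an unadjusted p under 0.05. Below 0 stood 9 of them, against 7969 of all 18318 tested genes. The exception was Mrrf, the mitochondrial ribosome recycling factor, with 1466.5, 1427.5, 1632.5 and 1936 (adjusted p 0.472, limma).

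Genes known as targets of the response to eIF2 phosphorylation were measured beside the factors. Of 19, 2 rose and none fell, against 2.01% and 0.54% of all tested genes, and the median log2 fold change was 0.07. At an unadjusted p under 0.05 there were 6 of 19 in limma, against 14.0% of all tested genes. Above 0 these were Nupr1, Vldlr and Trib3 (0.64), and below 0 Mthfd2 (-0.58), Atf4 and Ppp1r15a (-1.69). Ppp1r15a is also in the list of further translation factors and regulators and is counted in both. Trib3 and Mthfd2 are named here after their values were seen. Nupr1, a small stress-induced nuclear protein, had scaled values of 595, 368, 2768 and 2519.5, with both old replicates far above both young ones. It rose by 2.50 (SE 0.24) on the log2 scale, with an adjusted p of 0.00452 (limma, Benjamini-Hochberg). Vldlr, a lipoprotein receptor, had 2443 and 2593.5 in the young and 4964.5 and 5059 in the old, and rose by 0.99 (SE 0.13; adjusted p 0.0160, limma). Neither call held with no filter on low values (adjusted p 0.0859 and 0.0909, limma), without old 13 or without old 14. No tested gene of the series passed in these settings, so the loss there is not particular to Nupr1 or Vldlr. The call of Vldlr, unlike that of Nupr1, was also lost without young 13 and without young 14. The log2 differences stayed at 2.15 to 2.84 for Nupr1 and 0.95 to 1.04 for Vldlr when a replicate was left out. Atf4, the transcription factor of that response, named here after its values were seen, had 5428.5 and 8263 in the young and 4274.5 and 3746.5 in the old, with a log2 difference of -0.74 and an adjusted p of 0.166 (limma).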

How the data were processed

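Freshly sorted cells gave polyA-selected libraries (RNeasy Micro, TruSeq), per the labels' protocols. For the values the authors deposited, the submitters' processing notes list the build mm9 and DESeq, with no role. As to aligner and read counter: not given in the sources used here. Deposited values named like counts are treated as a score: the whole numbers skipped or doubled in the libraries show reads that the authors scaled by 1 factor per library and rounded. The deposited FPKM divides that score by length and a fixed total of 50 M, checked on 27330 genes. The authors' log2 fold change and FDR (an adjusted p-value) were copied from the deposited table.

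Technical libraries were averaged and log2(value + 0.5) was modelled on age alone in limma 3.58.1 (R 4.3.3), with a trended prior, two-sided tests and Benjamini-Hochberg adjustment, after tests on simulated data. TMM and median-ratio factors were computed from the deposited values. Members and lists were chosen with earlier results of these data known. By rule, the text names members marked by the authors, the 2 with the smallest p per role and that with the highest FPKM; Eif1ax, Eif5, Eif2s1, Eif2s2, Eif2ak3, Eif4g2, Eif4a1 and the other members outside it were chosen after their values were seen. Of the marker lists, erythroid had 4 genes called lower, stroma and endothelium 1 higher and 3 lower, T and NK cell 1 higher and stem cell 2 higher. Neutrophil (13 tested), megakaryocyte (7) and B cell (7) lists had 0 in limma. At an unadjusted p under 0.05 they had 5, 1 and 2, against 14.0% of all tested genes. The 1.2-fold bound, the length classes and the 2 motifs were also set after values were seen. Starts are 1-based.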

Additional observations from a re-analysis of the deposited data

How the results depend on the processing

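Of all tested genes 467 were called. The count was 482 with a pseudocount of 5, 372 with a stricter filter, 419 with TMM factors, 435 with median-ratio factors, 462 with limma-voom, and 293 and 314 with the lower- and the higher-numbered technical libraries. With no filter it was 0 in limma (2943 at an unadjusted p under 0.05). Leaving out a replicate gave 0 to 274: 274 without young 13, 187 without young 14, and in limma 0 without old 13 (3669 unadjusted) and 0 without old 14 (1933 unadjusted); the lone sample is then assumed to vary like the other age. With the replicate block it was 2766, and 1 translation factor gene, Eif1a, was called (adjusted p 0.00801, limma); its adjusted p ran from 0.00801 to 0.879 over the alternatives. Replicates 13 and 14 share only a number across ages: the difference of 13 minus 14 correlated between ages at r = 0.544 over 18318 genes, but 2 pairs do not show a pairing. Under the other alternatives that kept 2 replicates per age limma called 0 members. Of 29 named members 13 changed sign when a replicate was left out. With n = 2 per age, the limit of calling can be read from a gene close to it. The stem cell marker Procr, 1.79-fold higher in the old (SE of the log2 difference 0.16), only just passed (adjusted p 0.0483, limma). The members' median SE of 0.18 was larger than that of Procr. At that SE a member would need more than 1.79-fold, and smaller differences could therefore not be called.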
